A study of Mus musculus with 16 samples.

Results

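The inflammasome sensor genes described here were the 10 gene models whose deposited gene name equals Naip1, Naip2, Naip5, Naip6, Nlrc4, Nlrp1a, Nlrp1b, Nlrp3, Aim2 or Pycard. Each name was found once, giving 10 of the 50578 genes of the deposited annotation, and all 10 carried the same symbol under their Ensembl ID in a separate table of gene names. Nlrc4 and Pycard encode adaptors that sensors recruit, so the label fits them only in the wide sense.

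The study's 16 libraries came from mouse macrophages grown out of bone marrow over 7 days with the growth factor M-CSF at 50 ng/ml. Wild-type C57BL/6 cells gave 6 RNA-seq libraries, 3 untreated and 3 with LPS, and 4 ribosome profiling libraries, 2 untreated and 2 with LPS, whose titles carry CHX. Cells of genotype LysM-Cre x RiboTag, in which Cre driven by the myeloid gene LysM switches on a tagged ribosomal protein, gave 6 libraries, with 2 untreated, 2 at 6 h and 2 at 24 h of LPS, and the labels name no strain background for them. The duration of LPS is given per sample only for the RiboTag libraries, and the expression values and read depth of the libraries are outside what was analysed here. No gene is therefore called high, low or changed in any group. What follows are the gene models of build mm10, which have no replicates, so values carry no error and no test.

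Inflammasomes are protein platforms assembled in the cytosol of macrophages when a sensor meets a microbial product or a sign of cell damage. The sensor recruits the protease caspase-1, directly or through the adaptor ASC, and the protease matures interleukin-1β and interleukin-18 and cuts gasdermin D, whose pores end in a lytic cell death called pyroptosis. Most sensors belong to the NLR family, in which a nucleotide-binding NACHT domain is followed by leucine-rich repeats. AIM2 belongs to the PYHIN family and binds DNA through a HIN domain.

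The stretches of DNA just before the start sites show how far the copied sensor genes resemble each other outside their exons, and are given here for the 2 families with neighbouring copies. All are RefSeq sequence of build GRCm38.p6, the 250 bases before a RefSeq start site, read 5′ to 3′ on the minus strand, on which these genes lie. Capitals in the first pair mark bases that differ or fall outside the best local alignment of Nlrp1a with the upstream start of Nlrp1b, 33 in each. The downstream Nlrp1b start, which had no such alignment, is in lower case. The windows are chr11:71144705-71144954, chr11:71230734-71230983 and chr11:71201457-71201706.
Nlrp1a: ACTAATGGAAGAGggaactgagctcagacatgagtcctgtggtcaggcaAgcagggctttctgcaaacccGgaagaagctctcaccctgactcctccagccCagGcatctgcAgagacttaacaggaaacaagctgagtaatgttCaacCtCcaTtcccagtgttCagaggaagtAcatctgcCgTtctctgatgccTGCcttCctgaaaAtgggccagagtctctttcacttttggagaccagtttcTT
Nlrp1b, upstream start: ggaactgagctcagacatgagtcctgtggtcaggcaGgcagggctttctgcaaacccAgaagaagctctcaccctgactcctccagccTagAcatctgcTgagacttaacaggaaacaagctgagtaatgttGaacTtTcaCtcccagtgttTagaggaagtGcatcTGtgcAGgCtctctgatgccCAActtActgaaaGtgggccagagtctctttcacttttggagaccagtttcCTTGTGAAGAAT
Nlrp1b, downstream start: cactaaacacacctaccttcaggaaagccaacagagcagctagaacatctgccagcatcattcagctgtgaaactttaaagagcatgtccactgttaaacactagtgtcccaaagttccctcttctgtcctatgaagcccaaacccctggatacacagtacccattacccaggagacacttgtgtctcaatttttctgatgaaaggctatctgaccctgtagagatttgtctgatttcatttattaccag

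Capitals in the Naip windows mark runs of at least 8 bases found, in the same order, before the starts of all 3 genes shown. The windows are chr13:100452865-100453114 for Naip1, chr13:100202123-100202372 for Naip2 and chr13:100247337-100247586 for Naip5. The deposited models of Naip1, Naip2 and Naip5 start 6458, 30 and 1013 bases downstream of these RefSeq start sites.
Naip1: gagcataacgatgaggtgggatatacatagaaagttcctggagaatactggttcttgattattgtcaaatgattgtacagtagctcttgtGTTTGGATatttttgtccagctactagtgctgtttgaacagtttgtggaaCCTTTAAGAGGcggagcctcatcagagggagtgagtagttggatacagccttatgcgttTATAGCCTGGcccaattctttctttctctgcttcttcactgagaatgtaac
Naip2: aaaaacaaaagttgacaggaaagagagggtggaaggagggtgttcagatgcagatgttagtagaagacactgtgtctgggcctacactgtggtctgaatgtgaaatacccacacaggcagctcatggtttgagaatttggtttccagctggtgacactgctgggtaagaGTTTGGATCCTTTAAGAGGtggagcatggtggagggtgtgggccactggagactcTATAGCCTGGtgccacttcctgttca
Naip5: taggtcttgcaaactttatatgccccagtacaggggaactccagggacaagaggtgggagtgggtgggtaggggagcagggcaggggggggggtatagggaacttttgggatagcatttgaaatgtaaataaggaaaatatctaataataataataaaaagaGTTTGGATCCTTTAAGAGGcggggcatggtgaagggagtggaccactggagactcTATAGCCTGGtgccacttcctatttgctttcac

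As a group, the 10 genes were long and exon-rich. The spliced length of the longest transcript ran from 1405 bases in Pycard to 6827 bases in Naip6, with a median of 4170 bases, against a median of 2549 bases over 22159 protein-coding genes. Members had a median of 14 exons against 7, and their median span from first to last exon was 37595.5 bases against 16345 bases. Coding sequences (CDS) had a median of 1238.5 codons against 396 codons, with 8 members above that median. Aim2, at 354 codons, and Pycard, at 193 codons, were the members below it.

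The number of transcripts did not set the members apart in the same way. Their median was 2 transcripts, equal to that of all protein-coding genes. A single transcript was annotated for Naip1, Naip5, Nlrc4 and Pycard, 4 of 10 members, against 39.0% of protein-coding genes. Aim2 had the most, with 7, followed by Nlrp1b with 5.

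**Figure D1:**
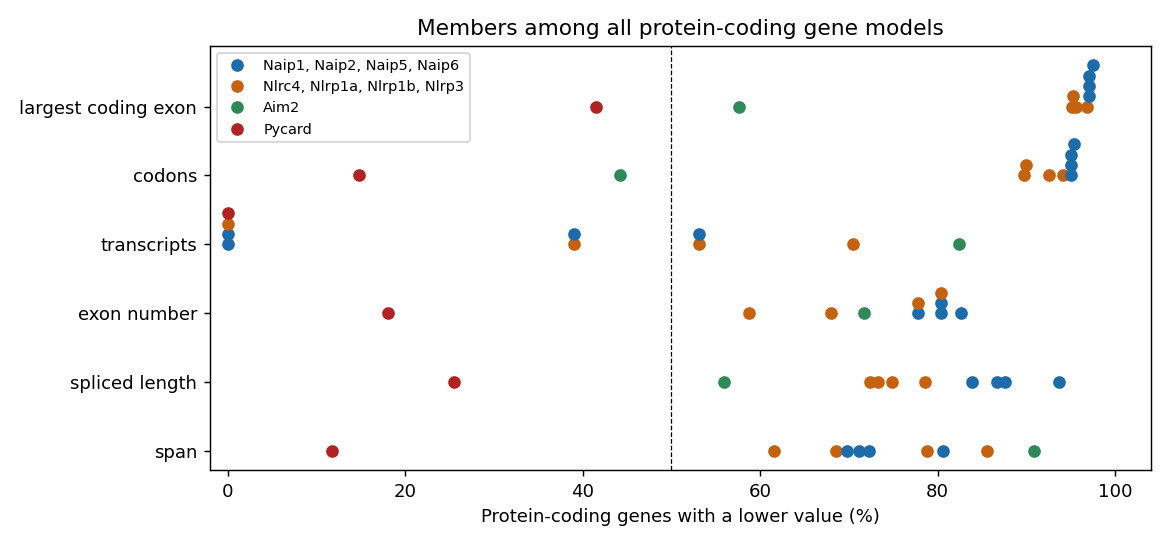
Each point is 1 of the 10 genes, placed on the horizontal axis by the percentage of 22159 protein-coding genes with a lower value (21445 genes with a complete CDS for codons and largest coding exon); stacked points are drawn apart vertically and the dashed line is at 50%. The Naip and NLR points sit right of the line for codons and largest coding exon, while Pycard is left of it in all 6 measures.

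The Naip genes encode the receptors that bind bacterial proteins directly: NAIP1 the needle and NAIP2 the inner rod of type III secretion systems, and NAIP5 and NAIP6 flagellin. All 4 lay on the minus strand of chromosome 13 within 302344 bases. In order of coordinate, Naip2 (ENSMUSG00000078945) lay at 100144063 to 100202092, Naip5 (ENSMUSG00000071203) at 100211739 to 100246323, Naip6 (ENSMUSG00000078942) at 100281121 to 100317674 and Naip1 (ENSMUSG00000021640) at 100407770 to 100446406. The gap between Naip2 and Naip5 was 9646 bases and that between Naip5 and Naip6 was 34797 bases. The unprocessed pseudogene Naip3 stood between Naip6 and Naip1, 21810 bases from the former and 28809 bases from the latter. Smn1, the survival motor neuron gene, was the next gene on the Naip2 side, 6372 bases away on the plus strand. The processed pseudogene Rpl31-ps13, a plus-strand copy of a ribosomal protein gene of 378 bases, lay within the span of Naip1. On the far side of Naip1 the next model was LOC100862307, which has no biotype, at 13373 bases.

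**Figure D2:**
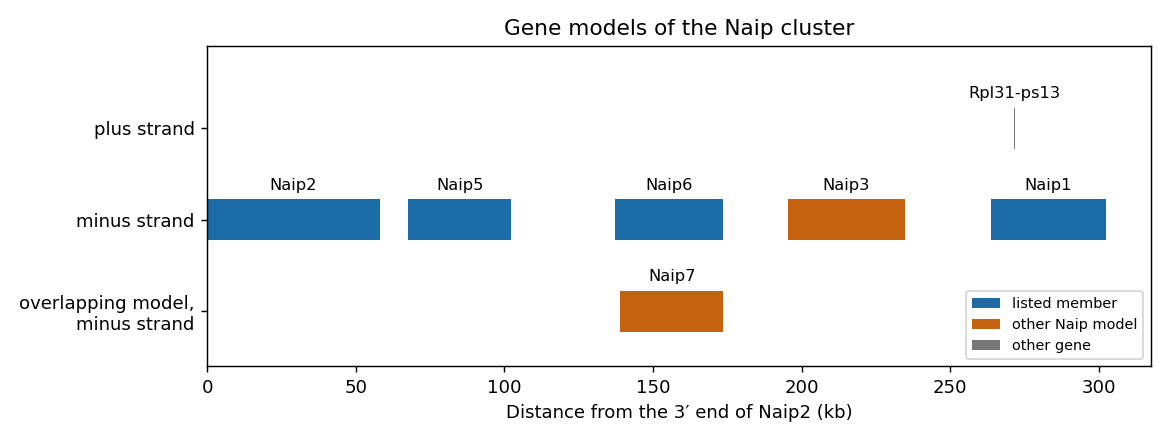
Spans of the gene models of the Naip cluster are drawn to scale against the distance from the 3′ end of Naip2 in kilobases, by strand and with listed members in blue. Naip7 occupies the place of Naip6, whereas the other Naip models are separated by gaps of 9646 to 34797 bases.

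The coding exons of the Naip copies were nearly a single series. Naip1, Naip5 and Naip6 each had 14 coding exons, of 568, 100, 82, 52, 120, 100, 82, 58, 2112, 168, 153, 87, 165 and 362 bases, and a CDS of 1403 codons. All 14 lengths were equal, in order, for each pair of these 3 genes. Naip2 matched them at 13 of 14 exons and differed at the ninth, which had 2244 bases, 132 bases or 44 codons more, for a CDS of 1447 codons. That exon held 51.7% of the Naip2 CDS and 50.2% of the CDS of each of the others. Exons 9 to 13 were each a whole number of codons long. Within the series the pair of 100 and 82 bases occurred at exons 2 and 3 and again at exons 6 and 7.

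Equal exon series were uncommon over all neighbouring genes, whether copies or not. Of 3301 pairs of neighbouring same-strand coding genes with at least 10 coding exons each, 101 (3.06%) had at least 90% of coding exons of equal length in order. All 3 neighbouring pairs of the listed Naip genes were among these. So were neighbours of other gene families, such as Cyp3a41b with Cyp3a41a and Slco1a4 with Slco1a1, and models of the same name, such as Arhgap30. How common equal series are among copies was not measured.

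**Figure D3:**
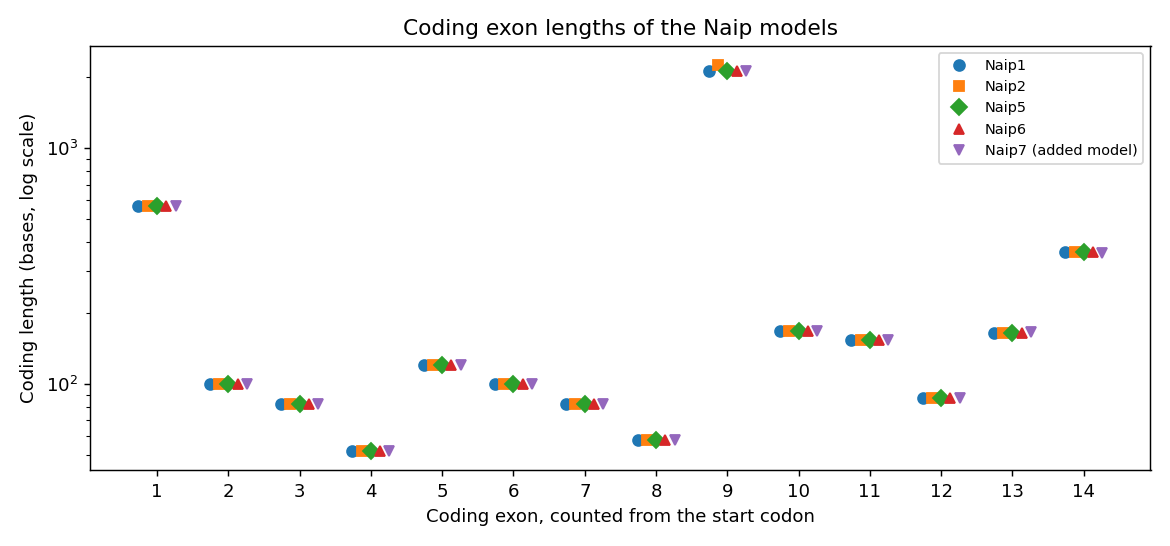
The coding length in bases of each of the 14 coding exons, counted from the start codon, is plotted on a log axis for the 4 listed Naip genes and the added model Naip7, with points of 1 exon set side by side. The points of an exon are level except at exon 9, where Naip2 has 2244 bases against 2112, and at exons 13 and 14, where Naip7 differs by 1 and 4 bases.

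Introns of the same copies differed widely. Over the 13 introns between coding exons, the longest copy of an intron exceeded the shortest by 1.34 to 22.7 times, with a median of 3.21 times, and 10 of 13 exceeded 1.5 times. Intron 11 was 6545 bases in Naip6 and 288 bases in Naip1, with 337 in Naip2 and 304 in Naip5. Intron 3 was 9389 bases in Naip5 and between 800 and 1120 bases in the other 3 genes. Summed over the 13 introns, Naip6 had the least, 28791 bases, and Naip2 the most, 40696 bases.

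Untranslated ends and transcripts also separated the copies. The 3′ untranslated length of the transcript with the longest CDS was 296 bases in Naip2, 868 in Naip5, 1037 in Naip1 and 2428 in Naip6. Naip2 had 3 transcripts with 3 start sites, of which Naip2-002 lacked the coding exon of 168 bases and encoded 1391 codons, 56 fewer than the other 2. The 2 transcripts of Naip6 differed in their start site and encoded the same 4209 bases.

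Naip6 was the member that shared exon bases with another gene on the same strand. Sharing by at least 1 base was found in 1 of 10 members, against 13.3% of protein-coding genes. The partner was Naip7, a model of unknown source and without biotype, built on the transcript NM_021545. The 2 models shared 4827 exon bases, 70.7% of Naip6's 6827 and 99.7% of Naip7's 4842. Of the 4209 coding bases of Naip6, 4205 (99.9%) lay in Naip7 exons. Both models had 15 exons, of which 12 had the same ends, and 12 of 14 introns were the same. Naip7 had coding exons of 166 and 358 bases where Naip6 had 165 and 362, so its CDS was 3 bases shorter. The Naip6 bases outside Naip7 numbered 2000, and 1994 of them were the 3′ part of the last exon, beyond the end of Naip7.

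Sharing over 50% of exon bases, as in Naip6, was found in 7.45% of protein-coding genes, and sharing with an added model, one from outside the Ensembl sources, in 8.12%. None of the other 9 members shared a same-strand exon base. On the opposite strand 0 of 10 members shared exon bases, against 22.0% of protein-coding genes. Whether reads of Naip6 were divided with Naip7 in the libraries was not measured.

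The pseudogene Naip3 kept much of the same series. It had 13 exons, of which 11 were equal in length and order to coding exons of Naip5, it had none of 58 bases, and its large exon had 2172 bases, 60 more than that of Naip5.

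In the best local alignment of the windows, Naip2 and Naip5 had 77 identical bases in 83 aligned positions (92.8%), Naip1 and Naip2 had 62 in 69 (89.9%), and Naip1 and Naip5 had 37 in 44 (84.1%). Naip6 aligned with Naip1 over 12 positions, with Naip2 over 11 and with Naip5 over 24. Over the 57 pairs that joined neither 2 Naip windows nor 2 Nlrp1 windows, the number of identical bases ran from 8 to 27 with a median of 12, which is the range in which Naip6 fell. These 57 include the 2 Nlrp3 windows, with 25 identical bases in 26. With looser penalties, chosen after seeing the data, the identical bases rose to 143 for Naip1 and Naip2, 70 for Naip1 and Naip5 and 79 for Naip5 and Naip6, and stayed at 77 for Naip2 and Naip5. Pairs of unlike genes then reached 140, so the order of the Naip pairs depended on the penalties. The Naip6 window starts from a RefSeq site inside the longer deposited model and holds 59 exon bases, so it is not printed.

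The 3 runs in capitals gave the shared core of the Naip1, Naip2 and Naip5 windows. The run GTTTGGAT began 160, 81 and 88 bases before the start in Naip1, Naip2 and Naip5, CCTTTAAGAGG 110, 73 and 80 bases, and TATAGCCTGG 51, 26 and 33 bases. In Naip2 and Naip5 the first 2 runs adjoined, while in Naip1 other bases stood between them. None of the 3 was in the Naip6 window, which lies before the start of Naip6-201 at 100316616. No window of the members lay before the start of Naip6-001, at 100317674, so those bases were not compared. Of 32851 RefSeq windows of the same length, 0.654% held GTTTGGAT, 0.0883% held CCTTTAAGAGG and 0.0548% held TATAGCCTGG, on either strand. The runs were picked because the 3 Naip windows share them, so these shares are no test of the sharing.

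Nlrc4 (ENSMUSG00000039193) encodes the adaptor that polymerises on a ligand-bound NAIP and carries a caspase-recruiting CARD. It lay apart from its partners, on chromosome 17 at 74426295 to 74459108 on the minus strand, with 1 transcript of 9 exons and 3838 bases. Its nearest neighbours were Slc30a6 at 2065 bases and Yipf4 at 30384 bases. The 8 coding exons had 1, 261, 1995, 93, 171, 93, 168 and 290 bases, for 1024 codons. The exon of 1995 bases held 64.9% of the CDS, the highest share among the 10 members. The first coding exon held a single base, so the start codon was split over 2 exons. A split start codon occurred in 1 of 10 members and in 0.182% of the 21445 coding genes that had a complete CDS. Nlrc4 shared 1 equal coding exon length with each Naip gene, the one of 168 bases.

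Nlrp1a and Nlrp1b encode sensors activated when the N-terminal part is cut or degraded, NLRP1B of some mouse strains being cut by anthrax lethal factor. Both lay on the minus strand of chromosome 11, Nlrp1a (ENSMUSG00000069830) at 71092236 to 71144704 and Nlrp1b (ENSMUSG00000070390) at 71153102 to 71230733. They were 8397 bases apart and spanned 138498 bases together. The transcribed pseudogene Nlrp1c-ps followed 11696 bases beyond Nlrp1b, which extended the cluster to 192997 bases. The small nucleolar RNA model Gm23266 lay between Nlrp1b and Nlrp1c-ps. The processed pseudogene Gm15377 was the next model beyond Nlrp1a, at 22101 bases.

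How alike the Nlrp1 copies looked depended on the transcript. By the transcripts with the longest CDS, Nlrp1a-002 with 1300 codons and Nlrp1b-002 with 1177 codons, 6 coding exons were equal in length and order. Nlrp1a-001, with 1182 codons, matched Nlrp1b at 11 of 13 coding exons. The remaining 2 were the large second exon, of 1681 bases in Nlrp1a and 1675 or 1666 in Nlrp1b, and the sixth, which was 9 bases or 3 codons longer in Nlrp1a. Nlrp1a-002 departed from Nlrp1a-001 at several exons, among them exons of 141 and 189 bases in place of the second exon of 171 bases in Nlrp1a-001, and had no annotated untranslated bases.

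Nlrp1b had 2 alternative beginnings for its protein. Transcripts Nlrp1b-001 and Nlrp1b-201 began upstream, and Nlrp1b-002 and Nlrp1b-202 began downstream, with 29277 bases between the start sites of Nlrp1b-001 and Nlrp1b-002. Each form had its own first coding exon, of 151 bases in both, and its own large second exon, of 1666 bases upstream and 1675 bases downstream. The other 11 of 13 coding exons were the same exons. The first 2 coding exons held 1826 bases, 51.7% of the Nlrp1b-002 CDS. Of the 5348 bases that were coding in any of the 4 complete coding transcripts, 1705 (31.9%) were coding in all 4. In the other members with more than 1 complete coding transcript that share was 88.7% in Nlrp1a, 96.1% in Naip2 and 100% in Naip6, Nlrp3 and Aim2. The remaining Nlrp1b transcript, Nlrp1b-003, was annotated as subject to nonsense-mediated decay, with 673 codons.

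**Figure D4:**
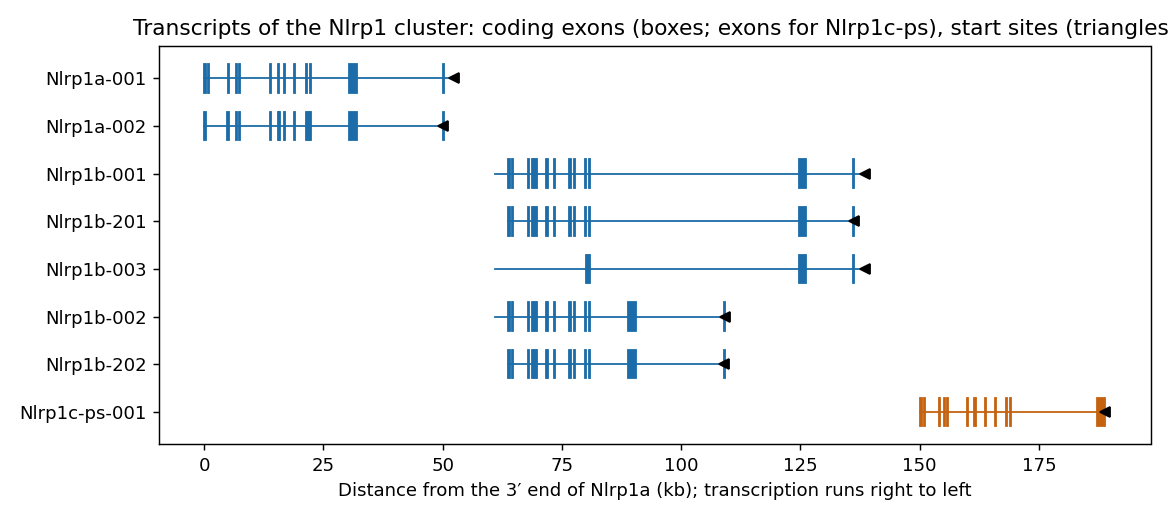
Transcripts of the Nlrp1 cluster are drawn to scale against the distance from the 3′ end of Nlrp1a in kilobases, with boxes for coding exons (all exons for the pseudogene Nlrp1c-ps, orange) and a triangle at each start site. The upstream and downstream forms of Nlrp1b have separate first and second coding exons and the same 11 coding exons after them.

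The pseudogene Nlrp1c-ps had 12 exons in Nlrp1c-ps-001, of which 9 matched coding exons of Nlrp1a-001 in length and order. Its counterpart of the Nlrp1a exon of 263 bases had 296 bases, 33 more.

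The windows printed for Nlrp1 showed which of the 2 Nlrp1b windows resembled that of Nlrp1a. Nlrp1a and the upstream Nlrp1b start had 217 identical bases in 235 aligned positions (92.3%), the highest number among the 66 pairs of windows. Nlrp1a and the downstream Nlrp1b start aligned over 12 positions with 11 identical. The 2 Nlrp1b starts aligned over 15 positions, all identical, which is within the range of the 57 other pairs. The windows are not placed alike relative to the start codon. Nlrp1a-001 starts at 71144704 and its coding sequence at 71142366, and Nlrp1b-001 at 71230733 and 71228467. Nlrp1b-002 starts 158 bases before its start codon, with 0 non-coding exons before it. Whether bases nearer the Nlrp1a start codon resemble the downstream window was not tested.

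Nlrp3 (ENSMUSG00000032691), whose protein responds to ion fluxes and membrane damage and whose transcript is widely used as a marker of LPS priming, lay on the plus strand of chromosome 11 at 59541568 to 59566956. It was outside the Nlrp1 cluster, with Zkscan17 14816 bases to one side and the odorant receptor gene Olfr222 3825 bases to the other. It had 3 transcripts with 3 start sites, and 2 of them encoded the same complete CDS of 1033 codons. The 9 coding exons had 277, 114 and 1756 bases, followed by 5 of 171 bases and a last one of 97. The exons of 171 bases, 57 codons each, together made 27.6% of the CDS.

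Exons of exactly 171 bases are a known unit of the leucine-rich repeats in NLRP genes. In the transcript with the longest CDS, such an internal coding exon was found in 4 of 10 members, 5 times in Nlrp3, 2 times in Nlrp1b and 1 time each in Nlrp1a-002 and Nlrc4. The other Nlrp1a transcript, Nlrp1a-001, had 2 next to each other, as Nlrp1b did. It was found in 4.32% of the 16665 coding genes that had at least 3 coding exons and a complete CDS. Of internal coding exons, 9 of 88 in the members (10.2%) and 0.532% of 156088 in all genes had this length. The length was read from Nlrp3, which holds 5 of these 9 exons, so Nlrp3 was bound to be counted. These shares are therefore not an independent comparison of the members with all genes. When lengths of 168 to 174 bases were counted, 8 of 10 members had one, against 20.9% of genes, since the Naip series holds one of 168 bases.

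Runs of this exon were rarer. Counted in the transcript with the longest CDS, a run of at least 2 neighbouring exons of 171 bases was found in 19 gene models (0.114%), of which 15 were models of NLR genes and the other 4 were Anxa7, Bmpr2, Hmcn1 and Rnh1. Nlrp1a is outside this count, since its pair is in the shorter CDS. A run of at least 5 was found in 7 models (0.0420%), which were Nlrp3, Nlrp5 and Nlrp14 with 5, Nlrp12 with 6 in each of its 2 models, Hmcn1 with 6 and Rnh1 with 7. Rnh1 encodes the ribonuclease inhibitor, a protein built of leucine-rich repeats, and Hmcn1 a large extracellular matrix protein. The choice to name Rnh1, Hmcn1, Anxa7 and Bmpr2 followed from their values.

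**Figure D5:**
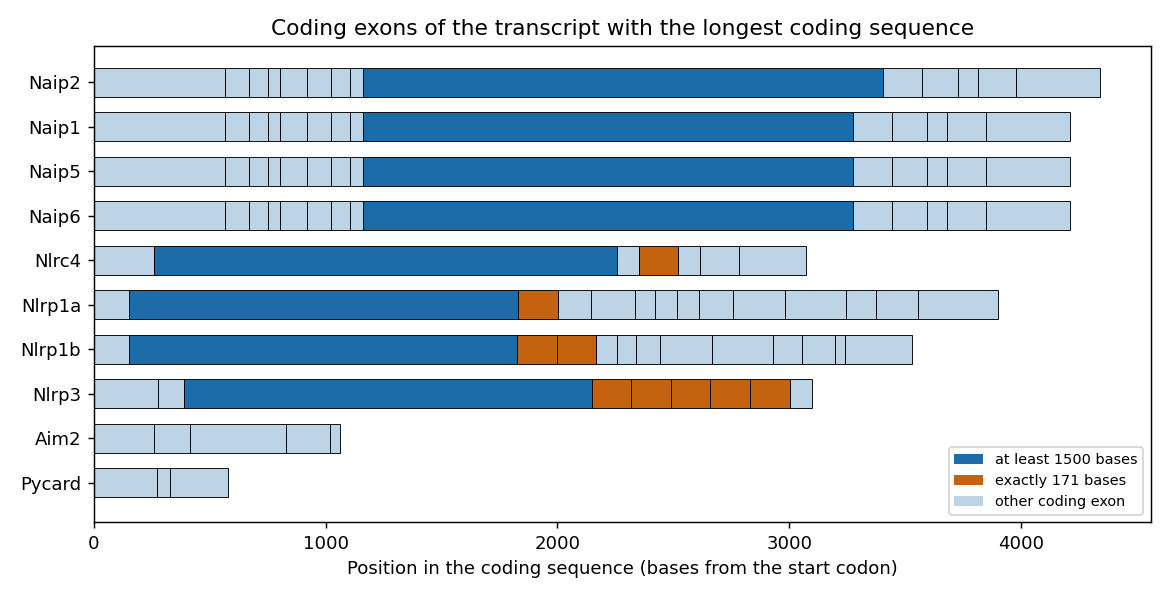
The coding exons of each gene, in the transcript with the longest CDS, are laid end to end against the position in the CDS in bases, with exons of at least 1500 bases in dark blue and those of exactly 171 bases in orange. The 8 NLR genes each have 1 dark block, Nlrp3 has 5 orange blocks after it, and Aim2 and Pycard have neither.

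Another repeated exon length, of 84 bases, was picked after it was seen in other NLR genes. At least 2 coding exons of 84 bases were found in 0 of 10 members and in 0.594% of genes with at least 3 coding exons and a complete CDS. Of 20 NLR genes outside the members, 5 had them, namely Nod1 and Nod2 with 7 each, Nlrc3 with 13, Nlrc5 with 25 and Ciita with 2.

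A single large coding exon was common to the NLR members. A coding exon of at least 1500 bases was found in 8 of 10 members, against 5.09% of genes with at least 3 coding exons and a complete CDS. Its length ran from 1675 bases in Nlrp1b to 2244 bases in Naip2. The NACHT domain of NLR proteins is known to be encoded largely by this exon.

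Exon lengths that are a multiple of 3 leave the reading frame intact when an exon is skipped. Of the internal coding exons of the members, 50 of 88 (56.8%) had such a length, against 40.7% over all protein-coding genes. Each Naip gene contributed 6 of 12 to that count, and the 4 Naip series are copies rather than separate observations. All 6 internal coding exons of Nlrc4 and 6 of 7 in Nlrp3 were of this kind.

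Aim2 (ENSMUSG00000037860), the sensor of double-stranded DNA in the cytosol, lay on the plus strand of chromosome 1 at 173350879 to 173466040. It had the widest span of the 10 genes, 115162 bases, wider than 90.9% of protein-coding genes, around the second shortest coding sequence of the 10. That width rests on 1 transcript, Aim2-001, as the next start site, that of Aim2-004, is at 173419196. In Aim2-001, 7 non-coding exons preceded the first coding exon, the start codon lay 104475 bases after the start site and the 5′ untranslated length was 752 bases, longer than in 97.3% of genes. Aim2-201 began at 173455354 and held the same 5 coding exons in 5 exons. The 7 transcripts had 6 start sites, 4 of them had a CDS and 2 a complete one. No exon base was common to all 7. The span overlapped that of Cadm3, a cell adhesion gene on the opposite strand, by 16817 bases, with no overlap of exons. Its other neighbours were Ackr1 at 17128 bases and Gm4955 at 2468 bases.

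The Aim2 coding exons had 262, 152, 414, 189 and 45 bases. Exons of 414 and 189 bases in a row were found in 3 genes (0.0180%), Aim2, Ifi202b and Pyhin1, all of the PYHIN family on chromosome 1. With a range of 405 to 423 bases in place of 414, widened after the exons of 423 bases in this family were seen, 7 of 9 other PYHIN genes had such a pair, against 0.0540% of genes with at least 3 coding exons and a complete CDS.

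Pycard (ENSMUSG00000030793) encodes ASC, the adaptor that links a sensor's pyrin domain to the CARD of caspase-1. It was the shortest gene of the 10, on the minus strand of chromosome 7 at 127992103 to 127993867, a span of 1765 bases that exceeded 11.8% of protein-coding genes. The neighbours were B230325K18Rik at 6401 bases and Gm15533 at 8981 bases. It had 1 transcript of 1405 bases, with coding exons of 271, 57 and 251 bases and 193 codons.

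The first coding exon of Pycard, at 271 bases, was close in length to those of Aim2, at 262 bases, and Nlrp3, at 277 bases. The proteins of these 3 genes all begin with a pyrin domain. The range of 262 to 277 bases that these 3 members set held the first coding exon of 1.24% of genes with at least 3 coding exons and a complete CDS. It was found in 8 of 9 other PYHIN genes, with Ifi202b at 120 bases the exception, and in 9 of 20 other NLR genes. The Nlrp genes of that NLR list outside the range were Nlrp5 at 70 bases, Nlrp14 at 73, Nlrp2 at 280, Nlrp12 at 289 and Nlrp6 at 391. In the list of downstream and partner genes it was found in Mefv, which encodes pyrin, at 277 bases.

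Outside the copies, members had little exon structure in common. Of the 45 pairs of members, the 38 that joined neither 2 Naip genes nor Nlrp1a with Nlrp1b had 0 to 2 coding exons equal in length and order, with a median of 0.

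The coding sequences of genes around the sensors in the pathway had a lower median length than those of the members. The list of 19 downstream and partner genes, which holds inflammatory caspases, gasdermin D, interleukins and regulators, lay on 10 chromosomes. Their CDS ran from 192 codons in Il18 to 892 codons in Dpp8. The median was 426 codons, against 1238.5 codons in the members and 396 codons over all genes with a complete CDS. None had a coding exon of at least 1500 bases, and 1, Il1b, had an internal one of 171 bases. Over genes with at least 3 coding exons and a complete CDS these shares were 5.09% and 4.32%. Same-strand sharing was found in 2 of 19 (10.5%), against 13.3% of protein-coding genes. P2rx7, an ATP-gated channel, shared 119 bases (1.99%) with Mir8115. Mb21d1, which encodes the DNA sensor cGAS, shared 3992 bases (96.8%) with E330016A19Rik. Exons on the opposite strand overlapped those of 7 of the 19, against 22.0% of protein-coding genes.

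Short motifs of macrophage factors were searched in the 12 windows of the members, on both strands. GAGGAA, a core bound by the myeloid factor PU.1, was in 5 of 12 windows, those of Nlrp1a, the upstream Nlrp1b start, the downstream Nlrp3 start, Aim2 and Pycard, and in 23.3% of all windows. The Nlrp1a and upstream Nlrp1b matches, 83 and 96 bases before the start, are the same site in the alignment of these copies. They are therefore not separate observations. TATAAA was in 2 of 12, Naip1 and Naip5, and in 12.4% of all. In Naip1 it lay 53 bases before the start on the opposite strand and overlapped the run TATAGCCTGG. In Naip5 it lay 236 bases before the start, also on the opposite strand. GGGANNTTC, letters of an NF-κB site, was in 1 of 12, that of Aim2, and in 3.23% of all. The Aim2 window, chr1:173420354-173420603, holds 33 exon bases and lies nearest to the start of Aim2-005, whose CDS is incomplete. It is not the window before Aim2-001, which starts at 173350879, or before Aim2-201, which starts at 173455354. TGANTCA and TTCNNTTTC, letters of AP-1 and IRF sites, were in 0 of 12 and in 6.75% and 7.13% of all windows. A match shows only that the letters are present.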

How the data were processed

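The file used was the series' gene annotation, in which the authors' deposited values are positions (start and end, counted from 1) of exons, coding sequences and codons. No other unit is present, 0 columns hold values per sample, and 0 lines carry a score. Per the submitters' processing notes, TopHat2 2.1.1 and mm10 were used. Of how the annotation was assembled, nothing is given in the sources used here. Positions were read with Python 3.11.15, pandas 2.3.3, numpy 2.4.6 and, for alignments, biopython 1.88. Shared bases are merged exon bases that same-strand exons of any other gene also cover. CDS lengths leave out the stop codon. Equal coding exons are the longest common series of lengths between the transcripts with the longest CDS. Local alignments scored 2 for a match, -3 for a mismatch, -5 to open and -2 to extend a gap. Motif shares are over 32851 RefSeq windows. Tested on simulated data, sharing was exact in 1200 of 1200 gene models and equal exons in 200 of 200 pairs. The simulated overlaps lay in a single exon, and the paired series had the same number of exons. Sharing over several exons, as in Naip6 and Naip7, and series of unequal exon number were not simulated. The members and lists were chosen with earlier results of these data known. Named were all members, the models that share their exons, lie in their clusters or are nearest neighbours, and the extremes and sharing genes of each list. Genes named for exons of 171, 84, 414 or 189 bases or for their first coding exon were picked after their values were seen. Alternatives changed the gene set, strand, least overlap, transcript, equality rule, background and alignment penalties. LPS comparisons and protein identity were planned and not run, since no library values or protein sequences were used here.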

Additional observations from a re-analysis of the deposited data

How the results depend on the processing

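Of 117 values recomputed under another setting, leaving out percentiles, 102 moved by no more than 1.5 times. Many of these 102 could not move, so the count does not measure robustness. Members with 0 shared bases keep 0 when models or bases are left out. The single transcript of Naip1, Naip5, Nlrc4 and Pycard gives the same length and exon number under each choice of transcript. With Ensembl-source models only, Naip7 is not counted, so the exon bases shared by the members fell from 4827 to 0 and the members sharing from 1 to 0. With any coding transcript in place of the longest CDS, the equal coding exons of Nlrp1a and Nlrp1b numbered 11 instead of 6. Counting 168 to 174 bases, chosen after seeing the data, gave 8 members with such an exon instead of 4. Looser alignment penalties, also chosen afterwards, gave 143 identical bases for Naip1 and Naip2, 70 for Naip1 and Naip5, 79 for Naip5 and Naip6 and 81 for Nlrp1a and the downstream Nlrp1b start, but also 140 for Naip6 and the upstream Nlrp1b start, which are in different clusters. They left Nlrp1a and the upstream Nlrp1b start at 217 and Naip2 and Naip5 at 77. The median transcript of Aim2 had 383 bases instead of 2839, and 4 of its 7 transcripts had a CDS. Without automatic models, Naip1 and Nlrc4 had 0 transcripts, Naip6 had 1 and Nlrp1b had 3. Percentiles changed by at most 1.51 points. No paired analysis was possible because no values per library were analysed here. For the same reason normalization, low-count filters, DESeq2 and left-out replicates were not run, nor were the alternatives for protein identity. Gene models are 1 annotation, which limits every value here.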

Other observations

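Among 20 NLR genes outside the members, 13 had an internal coding exon of 171 bases, and none of these 13 was among the 5 with at least 2 coding exons of 84 bases. The share with the exon of 171 bases was 4.32% over genes with at least 3 coding exons and a complete CDS. A coding exon of at least 1500 bases was found in 19 of the 20, with Nlrx1, which encodes a mitochondrial NLR, at 822 bases. That share was 5.09% over genes with at least 3 coding exons and a complete CDS, a set without Nlrp10, which has 2. Their CDS ran from 673 codons in Nlrp10 to 1915 codons in Nlrc5, with a median of 998 codons. None of the 20 shared exon bases with another gene on the same strand, against 13.3% of protein-coding genes. In the PYHIN list, Ifi203 and Mndal shared 37 bases with each other.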
